A study of Mus musculus with 12 samples.

Results

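Genes of DNA replication, of the cyclin and cyclin-dependent kinase (Cdk) machinery and of mitosis were followed through a neural differentiation of mouse embryonic stem (ES) cells. The members were chosen by name: any probe set of the array counted whose only gene symbol in the platform annotation was one of 45 listed genes. By this rule 44 genes were measured, with 104 probe sets, among 18193 genes and 34945 probe sets that have a single symbol. The members fall into 20 replication genes, 9 cyclin and Cdk genes and 15 mitosis genes. Ccnb1, the listed cyclin B1 gene, had no probe set with a single symbol and was not analysed here. The rule itself uses names and no measured value.

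ES cells were grown flat in N2B27, a medium without serum in which they turn towards a neural fate. A line called rtTA-Dmrt5 carries a transgene for Dmrt5, a transcription factor whose current gene symbol is Dmrta2, under control of the doxycycline (Dox) activator rtTA, and the other line, called rtTA, is its parent and is labelled with the activator only. Treated cells received Dox from day 5 on, and RNA was taken on day 7 or on day 9. The 12 arrays form 6 groups of 2: rtTA at day 7 without Dox, rtTA at day 7 with Dox, rtTA-Dmrt5 at day 7 without Dox, rtTA-Dmrt5 at day 7 with Dox, rtTA-Dmrt5 at day 9 without Dox and rtTA-Dmrt5 at day 9 with Dox. No day 9 arrays of the parental line were analysed here, and each genotype is a single cell line. The labels do not say that the 2 arrays of a group come from separate cultures, so p-values measure only the spread between these arrays, which may be technical.

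Before a cell copies its DNA, the origin recognition complex, Cdc6 and Cdt1 load the Mcm helicase onto origins, and S phase then brings in the Gins complex, primase, the polymerases and the sliding clamp Pcna. D-type cyclins link growth signals to the retinoblastoma protein, cyclin E with Cdk2 drives entry into S phase, and cyclins A and B with Cdk1 drive mitosis. Many replication genes are transcribed at the G1 to S transition through E2F factors, whereas many mitosis genes are transcribed later, through a promoter element called the cell cycle genes homology region (CHR) bound by the DREAM and MuvB complexes. Proliferating neural progenitors express these genes, and neurons, which have left the cell cycle, lower most of them.

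Because these E2F and CHR elements separate the classes in textbook accounts, the promoters of the members were searched for them. RefSeq promoters of GRCm38.p6, which run from 250 bases before to 50 bases after a start site, matched 37 of the 44 members by symbol. The letters searched on both strands were, for E2F, TTTCCCGC or TTTCGCGC or TTTGCCGC or TTTGGCGC, for the CHR, TTTGAA or TTCGAA, and for the CCAAT box, CCAAT. Matches on opposite strands can overlap, as the pair of E2F matches in Mcm5 does. Shown here are 170 bases ending just before the start site, 5′ to 3′ on the gene's strand, for 3 replication genes with an E2F match, for 2 mitosis genes with a CHR match and for Cdk1, which has both. Every match is in capitals.
Mcm5: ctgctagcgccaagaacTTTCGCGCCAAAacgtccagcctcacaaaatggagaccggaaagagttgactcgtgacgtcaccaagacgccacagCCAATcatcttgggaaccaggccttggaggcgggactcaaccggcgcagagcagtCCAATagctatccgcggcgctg
Mcm6: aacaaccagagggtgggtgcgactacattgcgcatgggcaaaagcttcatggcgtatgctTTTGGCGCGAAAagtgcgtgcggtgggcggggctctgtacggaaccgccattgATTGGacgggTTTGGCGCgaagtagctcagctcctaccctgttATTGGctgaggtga
Cdc6: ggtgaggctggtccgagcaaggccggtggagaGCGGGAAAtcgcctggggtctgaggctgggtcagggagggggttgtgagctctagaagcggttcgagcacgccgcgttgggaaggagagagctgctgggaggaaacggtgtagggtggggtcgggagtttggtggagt
Cdk1: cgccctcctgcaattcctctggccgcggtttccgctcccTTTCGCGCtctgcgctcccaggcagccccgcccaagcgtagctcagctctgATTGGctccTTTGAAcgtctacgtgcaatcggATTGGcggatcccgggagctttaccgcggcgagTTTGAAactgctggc
Mki67: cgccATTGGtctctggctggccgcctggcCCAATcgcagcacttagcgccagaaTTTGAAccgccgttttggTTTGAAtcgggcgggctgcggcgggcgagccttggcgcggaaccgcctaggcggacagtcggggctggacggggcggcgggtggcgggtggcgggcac
Cdc20: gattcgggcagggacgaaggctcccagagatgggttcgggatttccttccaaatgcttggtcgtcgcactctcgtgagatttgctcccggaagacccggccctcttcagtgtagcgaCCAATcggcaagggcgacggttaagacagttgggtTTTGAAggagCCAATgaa

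The stretches lie at chr8:75109339-75109508 on the plus strand, chr1:128359706-128359875 on the minus strand and chr11:98907981-98908150 on the plus strand for the replication genes. That of Cdk1 lies at chr10:69352913-69353082 on the minus strand, that of Mki67 at chr7:135716380-135716549 on the minus strand and that of Cdc20 at chr4:118437344-118437513 on the minus strand. In Mcm5 the E2F letters began 153 bases before the start, and in Mcm6 110 and 47 bases before it. In Cdc6 a single E2F match on the opposite strand began 138 bases before the start, and neither of the other motifs was found. Cdk1 held E2F letters 131 bases and CHR letters 71 and 15 bases before its start. The CHR letters of Mki67 began 116 and 98 bases, and those of Cdc20 18 bases, before the start. Over the class, E2F letters stood in 10 of 18 replication promoters (55.6%), in 2 of 5 cyclin and Cdk promoters and in 0 of 14 mitosis promoters. CHR letters stood in 4 of 18 replication promoters (22.2%), in 2 of 5 cyclin and Cdk promoters and in 11 of 14 mitosis promoters (78.6%). Of all 14452 measured genes with a promoter, 3.81% held E2F letters, 17.5% CHR letters and 42% a CCAAT box. The CCAAT box stood in 12 of 18 replication (66.7%) and 12 of 14 mitosis promoters (85.7%). These matches describe letters in a window and are not sites of measured binding.

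Each value is a log2 value from which the probe set's median over the 12 arrays has been taken, so it carries differences between arrays and no level, and a difference of 1 stands for a factor of 2. Where a gene has several probe sets, those read as brightest were averaged. Only a range for the level could be inferred, from the spacing of the stored numbers and not from a measured level. By this reading 40 of the 44 members had a probe set with a median log2 level of at least 8, and the other 4 one between 4 and 8. Dmrta2, the targeted gene, went against its labels: it read 1.91 and 1.85 in rtTA-Dmrt5 cells at day 7 without Dox and -0.15 and -0.95 with Dox, a log2 change of -2.42 (SE 0.33, limma adjusted p = 0.00198), and at day 9 the change was -2.61. Whether its probe sets detect the transgene is not stated in the labels, so all directions below are those of the arrays labelled with and without Dox. Replicate arrays differed for the 44 members by a median of 0.031 to 0.11 in each group, and the widest gap was that of Cdk2 in rtTA-Dmrt5 cells at day 9 with Dox (0.69). With 2 arrays per group this number limits the precision.

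All classes were lowest in the rtTA-Dmrt5 cells of day 9 without Dox. The replication genes had a class median there of -0.52 ± 0.007, the cyclins and Cdks of -0.35 ± 0.017 and the mitosis genes of -0.39 ± 0.058 (mean ± SD of the medians of 2 arrays), against -0.001 ± 0.008 for all genes. In the same line at day 9 with Dox the medians were -0.088 ± 0.083, -0.016 ± 0.008 and -0.004 ± 0.016. At day 7 they were -0.062 ± 0.015, -0.12 ± 0.068 and -0.16 ± 0.021 without Dox and 0.042 ± 0.007, 0.052 ± 0.058 and 0.030 ± 0.008 with Dox. The parental line was highest in all 3 classes, at 0.18 ± 0.010, 0.30 ± 0.099 and 0.21 ± 0.077 without Dox and 0.12 ± 0.009, 0.19 ± 0.069 and 0.17 ± 0.011 with Dox. In none of the classes did the 2 arrays of day 9 without Dox overlap with any other array. For the cyclins and Cdks the means at day 7 with Dox and at day 9 with Dox differed by little more than the spread between arrays.

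**Figure D1:**
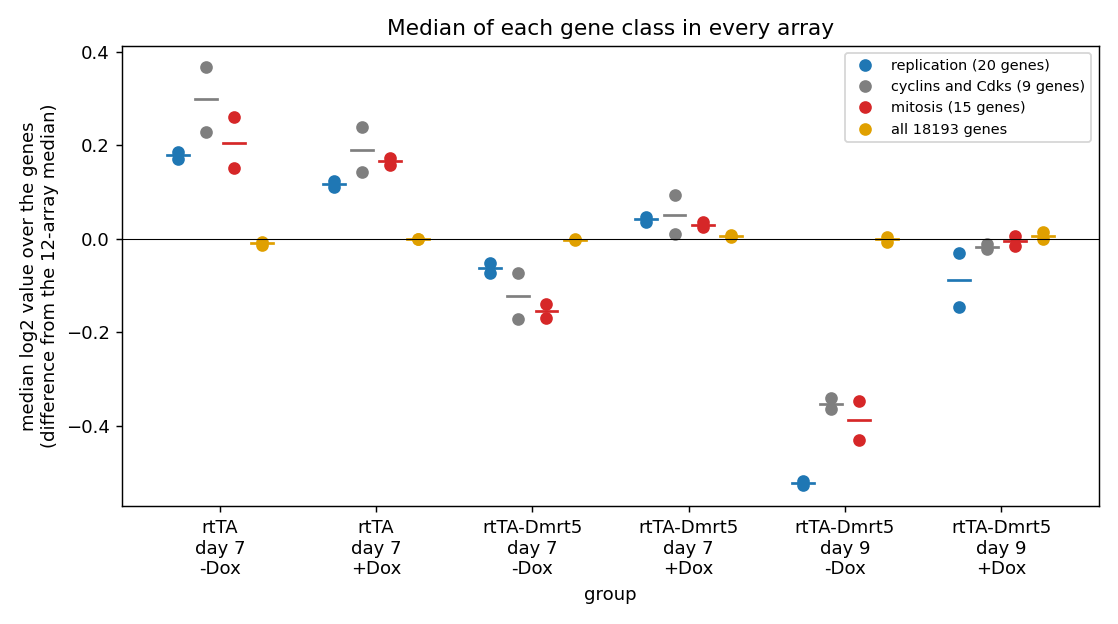
Median log2 value (difference from the 12-array median, vertical axis) of the 20 replication, 9 cyclin and Cdk and 15 mitosis genes and of all 18193 genes in each array, by group (horizontal axis). Points are arrays and short lines are means of 2 arrays; the arrays of rtTA-Dmrt5 cells at day 9 without Dox lie between -0.53 and -0.34 in the 3 classes, below every other array, while all genes stay near 0.

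Gene by gene, the lowest group mean lay in day 9 without Dox for 39 of the 44 members: 18 of 20 replication genes, 7 of 9 cyclins and Cdks and 14 of 15 mitosis genes. The 5 exceptions were Cdk2, lowest in rtTA-Dmrt5 cells at day 7 without Dox, and Lig1, Uhrf1, Ccnd1 and Birc5, lowest at day 9 with Dox. The highest group mean lay in the parental line without Dox for 27 members and with Dox for 6. In rtTA-Dmrt5 cells it lay at day 7 with Dox for 6 members (Mcm6, Cdc6, Cdt1, Rfc4, Ccnd2 and Birc5), at day 9 with Dox for 4 (Ccnd3, Mki67, Top2a and Cenpe) and at day 7 without Dox for Aurkb alone. Lowest and highest groups were not counted over all genes, so these numbers of members have no background beside them.

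**Figure D2:**
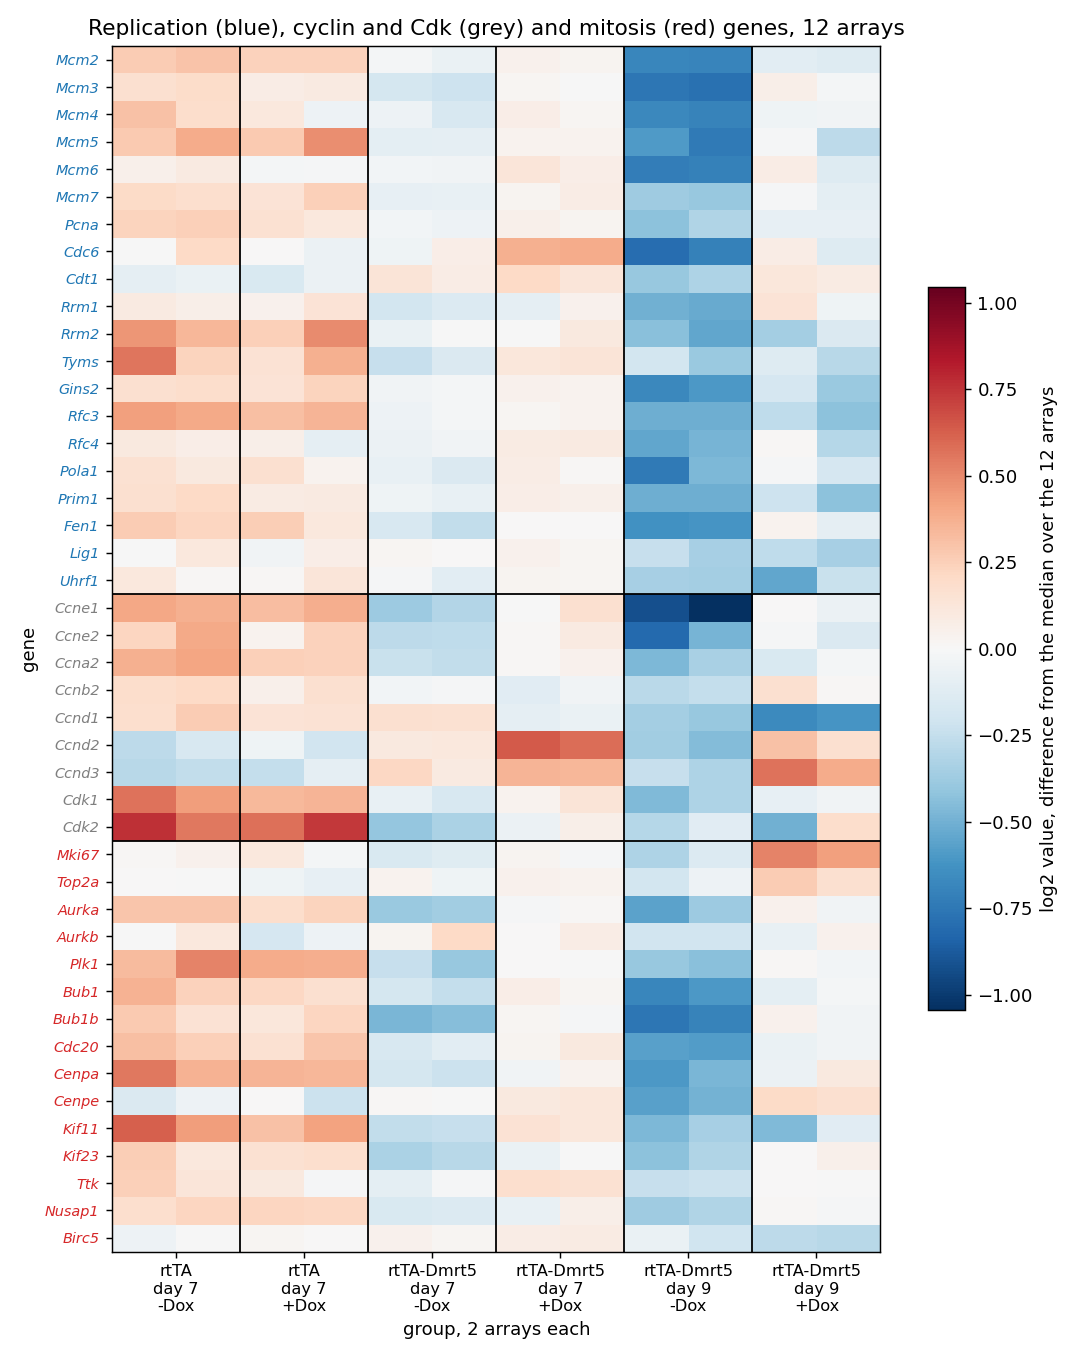
Log2 value (difference from the gene's 12-array median, colour scale) of each of 44 genes (rows) in each of 12 arrays (columns, 2 per group). The column pair of rtTA-Dmrt5 day 9 without Dox is blue for nearly all genes. Several genes are also blue at day 9 with Dox, among them Ccnd1, Uhrf1, Rfc3, Prim1 and Lig1. Ccnd2 and Ccnd3 are blue in the parental line.

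The first comparison asks how the members changed between day 7 and day 9 in rtTA-Dmrt5 cells without Dox. Replication genes fell together: 18 of 20 fell and 0 rose, with a median log2 change of -0.47, beside -0.011 for all genes. The calls of Mcm7, Pcna, Rrm1, Pola1 and Lig1 were lost when only the compared arrays were fitted. Leaving out any 1 of those arrays lost the calls of Mcm7, Rrm1 and Lig1, and each such run lost other replication calls as well. Of the cyclins and Cdks 4 of 9 fell (median -0.38), and of the mitosis genes 4 of 15 (median -0.18); 0 rose in either class. In all, 26 of 44 members (59.1%) fell, where 7.11% of all 18193 genes fell, 7.88% rose and 15.0% changed in either direction (limma, Benjamini-Hochberg adjusted p under 0.05). The difference between the classes was not tested. In bulk RNA, fewer cells of a type and less RNA per cell cannot be told apart. Neuron markers rose over the same days, 13 of 17, and their part in the result was not tested.

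The loading factor Cdc6 and the helicase subunit Mcm6 had the largest falls of the replication class. Cdc6 read -0.047 and 0.070 at day 7 and -0.79 and -0.71 at day 9 without Dox. Its change was -0.76 (SE 0.11, adjusted p = 0.00151), the largest of the replication class. Mcm6 read -0.025 and -0.035 at day 7 and -0.72 and -0.71 at day 9, a change of -0.69 (SE 0.090, adjusted p = 0.0011). Mcm3, another subunit, went from -0.18 and -0.22 to -0.76 and -0.78, a change of -0.57 (SE 0.076, adjusted p = 0.00118). For all 3 genes both day 9 arrays lay below both day 7 arrays by more than the gap between replicates. These genes were chosen for large called changes, so that separation is no further support. Of the other subunits, Mcm2 fell by 0.64, Mcm4 by 0.58, Mcm5 by 0.56 and Mcm7 by 0.31, and the Gins subunit Gins2 fell by 0.61.

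Pola1, the catalytic subunit of polymerase alpha, fell by 0.49 and the primase subunit Prim1 by 0.45. Rfc3 and Rfc4, subunits of the clamp loader, fell by 0.48 and 0.47, and the clamp Pcna by 0.33. Cdt1, the partner of Cdc6 in loading, fell by 0.47. With all probe sets averaged Pola1 gave -0.10 (limma adjusted p = 0.557) and Cdt1 -0.16 (limma adjusted p = 0.302), so both calls were lost. Fen1 and Lig1, which process and join Okazaki fragments, fell by 0.41 and 0.31. The ribonucleotide reductase subunits Rrm2 and Rrm1 fell by 0.45 and 0.34, while Tyms, thymidylate synthase, gave -0.100 (adjusted p = 0.685) and Uhrf1, which helps to copy DNA methylation, -0.29 (adjusted p = 0.112). Replication promoters that held the E2F letters had a median change of -0.48 (9 of 10 genes fell), and those that did not -0.43 (7 of 8 fell).

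The cyclins that fell were Ccne1 and the D-type cyclins. Ccne1, cyclin E1, read -0.38 and -0.31 at day 7 and -0.92 and -1.05 at day 9, a change of -0.64 (SE 0.091, adjusted p = 0.00171). Ccnd1 went from 0.17 and 0.16 to -0.35 and -0.40, a change of -0.54 (SE 0.078, adjusted p = 0.00187). Ccnd2 went from 0.10 and 0.11 to -0.37 and -0.45, a change of -0.51 (SE 0.093, adjusted p = 0.00569). Ccnd3 went from 0.22 and 0.096 to -0.24 and -0.32, a change of -0.44 (SE 0.097, adjusted p = 0.0147). The Ccnd3 call was lost with all probe sets averaged. The day 7 and day 9 arrays did not overlap for any of these 4 genes, which is likely for genes that passed and adds no support. Ccne2 (-0.38), the mitotic kinase Cdk1 (-0.27), the mitotic cyclin genes Ccnb2 (-0.25) and Ccna2 (-0.16), and Cdk2 (0.16) did not pass, with adjusted p between 0.0727 and 0.654.

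Of the mitosis genes, Cenpe, a kinetochore motor, read 0.014 and -0.0025 at day 7 and -0.57 and -0.49 at day 9, a change of -0.53 (SE 0.095, adjusted p = 0.00521). Cdc20, the activator of the anaphase-promoting complex, went from -0.17 and -0.11 to -0.57 and -0.58, a change of -0.43 (SE 0.084, adjusted p = 0.00774). The checkpoint kinase gene Bub1 fell by 0.43 and Cenpa, the centromeric histone, by 0.34. The Cenpa call was lost with only the compared arrays fitted and on leaving out any 1 of those arrays. The groups of Cenpe, Cdc20, Bub1 and Cenpa were separate, which again is likely for genes that passed. The other 11 mitosis genes lay below 0 without passing, from Aurkb at -0.32 (adjusted p = 0.0545) and Bub1b at -0.27 (adjusted p = 0.0604) to Kif23 at -0.064. The proliferation marker Mki67 gave -0.087 with an interval (95%) of -0.29 to 0.12. Without rtTA-Dmrt5 day 7 replicate 1 or 2, or day 9 replicate 1, all without Dox, 13, 16 and 14 members passed, and all of them fell.

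**Figure D3:**
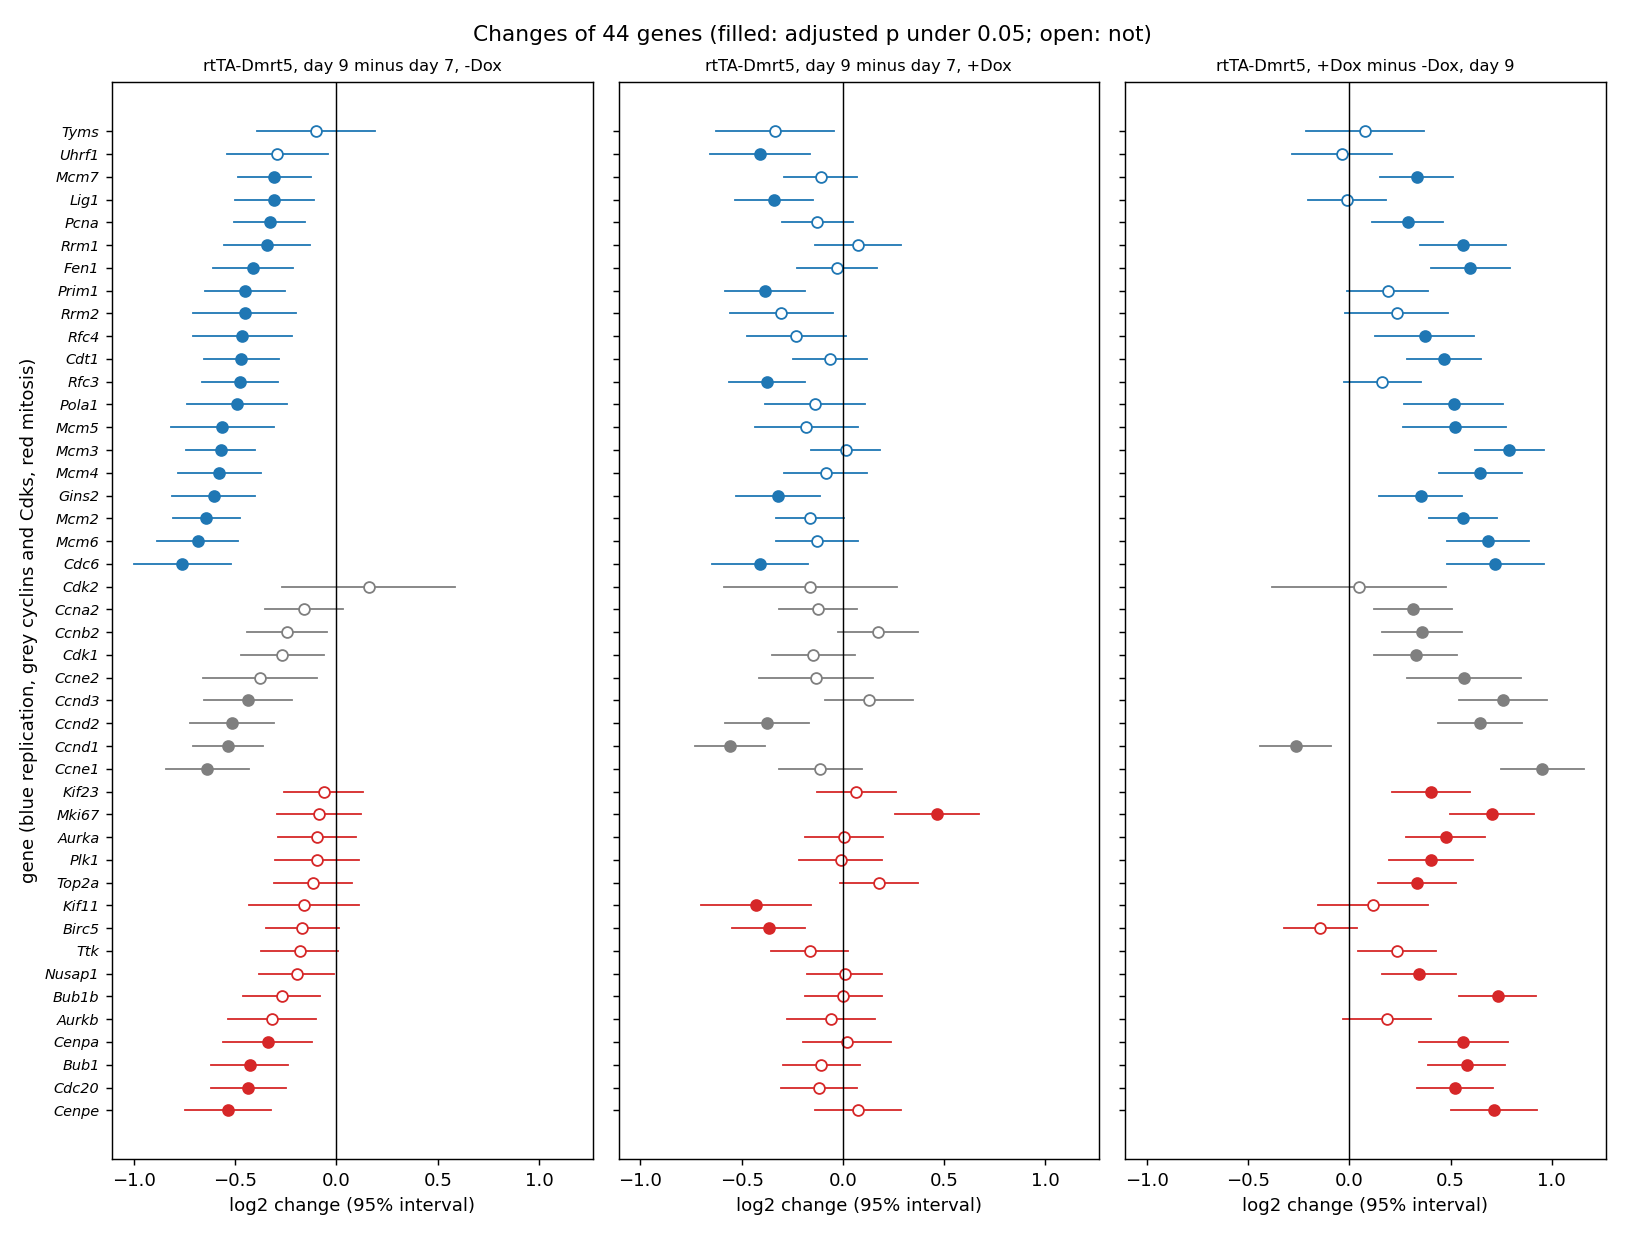
Log2 change with its 95% interval (horizontal axis) for each of 44 genes (vertical axis; blue replication, grey cyclins and Cdks, red mitosis) between day 9 and day 7 without Dox, between day 9 and day 7 with Dox, and between Dox and no Dox at day 9, all in rtTA-Dmrt5 cells. Filled points passed adjusted p 0.05: on the left 26 genes lie below 0, in the middle 10 lie below and Mki67 above, and on the right 32 lie above and Ccnd1 below.

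The same interval with Dox showed fewer changes. Between day 7 and day 9 with Dox 10 of 44 members (22.7%) fell and 1 rose, where 6.19% of all genes fell, 10.0% rose and 16.2% changed in either direction. The class medians were -0.17 for replication genes (6 of 20 fell), -0.14 for cyclins and Cdks (2 of 9 fell) and 0.001 for mitosis genes (2 of 15 fell and 1 rose). Ccnd1 had the largest fall, from -0.098 and -0.067 to -0.67 and -0.61, a change of -0.56 (SE 0.078, adjusted p = 0.00166). The spindle motor gene Kif11 fell by 0.43, Uhrf1 by 0.41, Cdc6 by 0.41, Prim1 by 0.38, Ccnd2, Rfc3 and Birc5 by 0.37, Lig1 by 0.34 and Gins2 by 0.32. Uhrf1 lost its call with all probe sets averaged. Mki67 rose by 0.47 (SE 0.092, adjusted p = 0.00876), a call lost without day 7 replicate 2 with Dox (adjusted p = 0.0676). Mcm3 read 0.018 and -0.0065 at day 7 and 0.058 and -0.018 at day 9, so that its groups overlapped, with a change of 0.014 and a 95% interval of -0.16 to 0.18. Bub1b likewise gave 0.0014, with an interval of -0.19 to 0.19. Hybridisation controls added to every array read -0.34 and -0.017 at day 7 and -0.79 and -0.66 at day 9, all with Dox. In the same arrays the 3′ minus 5′ reading of the Actb control was 0.054 and -0.13 at day 7 and 0.23 and 0.20 at day 9. The part of these array differences here, and in the test of the difference below, was not tested. The arrays set how many passed: the count was 2 without day 7 replicate 1, 1 without day 7 replicate 2 and 6 without day 9 replicate 2, all with Dox.

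Whether the day 7 to day 9 change differed with Dox was tested by the difference between these changes, which is also the difference between the Dox responses of day 9 and day 7. Mcm3 (0.59, SE 0.11, adjusted p = 0.0278), Mcm2 (0.48, SE 0.11, adjusted p = 0.0497) and Cenpe (0.61, SE 0.13, adjusted p = 0.0497) passed, 3 of 44 members, where 1.43% of all genes passed in this direction, 0.995% in the other and 2.42% in either. Without Dox these 3 genes fell (Mcm2 by 0.64), and with Dox none of them passed (Mcm2 gave -0.16, with a 95% interval of -0.33 to 0.0060). Median differences were 0.32 for replication genes, 0.14 for cyclins and Cdks and 0.26 for mitosis genes, beside 0.026 for all genes. Mcm2 and Cenpe lost their call when any 1 of the 8 rtTA-Dmrt5 arrays was left out, and Mcm3 when any but the second day 9 array with Dox was left out. Without that array Mcm3, Mcm6 and Ccnd3 passed, and without any other of the 8 no member did. In all 20 of the 44 members had an unadjusted p under 0.05, beside 3305 of all 18193 genes. For the other 41 members a difference between the intervals with and without Dox was not shown.

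At day 9 itself, cells with Dox read higher than cells without in most members. In this comparison 32 of 44 members (72.7%) rose with Dox and 1 fell, where 16.9% of all genes rose, 11.3% fell and 28.2% changed in either direction. By class, 14 of 20 replication genes rose (median 0.42), 7 of 9 cyclins and Cdks (median 0.36) and 11 of 15 mitosis genes (median 0.40), beside a median of 0.010 for all genes. This comparison uses the same day 9 arrays without Dox as the day 7 to day 9 comparison above, so these values are not independent of each other. Without day 9 replicate 1 of the cells without Dox, 20 members passed, all higher with Dox. Neuron markers fell with Dox, 11 of 17, and ES-cell markers rose, 11 of 13; their part in the result was not tested.

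Among the regulators of S phase entry, Ccne1 had the largest change of any member. It read -0.92 and -1.05 without Dox and 0.0025 and -0.060 with Dox, a change of 0.95 (SE 0.091, adjusted p = 0.000127). Ccnd3 read -0.24 and -0.32 against 0.57 and 0.39, a change of 0.76 (SE 0.097, adjusted p = 0.000518). Ccnd2 read -0.37 and -0.45 against 0.30 and 0.17, a change of 0.64 (SE 0.093, adjusted p = 0.000957). Ccnd1 went the other way from its relatives, with -0.35 and -0.40 against -0.67 and -0.61. Its change was -0.26 (SE 0.078, adjusted p = 0.0304), and the call was lost on leaving out either array without Dox or the first with Dox (adjusted p 0.0768 to 0.144). Ccne2, the other cyclin E gene, rose by 0.57, Ccnb2 by 0.36, Cdk1 by 0.33 and Ccna2 by 0.31. Cdk2 gave 0.048 with a 95% interval of -0.38 to 0.48, since its arrays with Dox read -0.50 and 0.18.

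In the replication class Mcm3 went from -0.76 and -0.78 without Dox to 0.058 and -0.018 with Dox, a change of 0.79 (SE 0.076, adjusted p = 0.000128). Cdc6 went from -0.79 and -0.71 to 0.076 and -0.13, a change of 0.72 (SE 0.11, adjusted p = 0.00109). Mcm6 went from -0.72 and -0.71 to 0.080 and -0.14, a change of 0.69 (SE 0.090, adjusted p = 0.000608). None of these pairs of groups overlapped, but the genes were chosen for large called changes, so this adds no support. Mcm4 rose by 0.65, Fen1 by 0.60, Mcm2 and Rrm1 by 0.56, Mcm5 and Pola1 by 0.52, Cdt1 by 0.47, Rfc4 by 0.37, Gins2 by 0.35, Mcm7 by 0.33 and Pcna by 0.29. The 6 that did not pass were Rrm2 (0.24), Prim1 (0.19), Rfc3 (0.16), Tyms (0.080), Lig1 (-0.012) and Uhrf1 (-0.036). The 95% intervals of Lig1 and Uhrf1 ran from -0.21 to 0.18 and from -0.28 to 0.21.

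Among the mitosis genes Bub1b, a kinase-like protein of the spindle checkpoint, went from -0.76 and -0.70 without Dox to 0.042 and -0.035 with Dox, a change of 0.73 (SE 0.085, adjusted p = 0.000324). Cenpe went from -0.57 and -0.49 to 0.20 and 0.17, a change of 0.71 (SE 0.095, adjusted p = 0.000653). Cdc20 went from -0.57 and -0.58 to -0.069 and -0.035, a change of 0.52 (SE 0.084, adjusted p = 0.0017). In each the arrays with Dox were above both arrays without, as is likely for genes chosen for large called changes. Mki67 rose by 0.71, Bub1 by 0.58, Cenpa by 0.56, the kinase gene Aurka by 0.48, the kinase gene Plk1 and the midzone motor gene Kif23 by 0.40, the spindle protein gene Nusap1 by 0.35 and the topoisomerase gene Top2a by 0.34. The checkpoint kinase gene Ttk (0.24), Aurkb (0.19), Kif11 (0.12) and Birc5 (-0.14), whose product works with Aurkb in the chromosomal passenger complex, did not pass.

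The day 9 result rests in part on which probe sets represent a gene. For 11 of the 33 called members at least 1 probe set had a change of the opposite sign, a dimmer one in all of them but Ccna2 and Ccnd1: Bub1b, Ccna2, Ccnd1, Ccnd3, Cdt1, Cenpa, Kif23, Mcm6, Pola1, Rrm1 and Top2a. The probe sets of Ccnd3 ran from -0.34 to 0.76 and those of Mcm6 from -0.40 to 0.75. With all probe sets averaged 24 members rose, and Cdt1, Rrm1, Pola1, Ccnd3, Top2a, Aurka, Cenpa and Kif23 no longer passed. All probe sets of Ccnd2 (7, from 0.45 to 0.97), Mcm3 (5, from 0.17 to 1.01), Ccne1 and Cenpe (2 each) lay above 0. Hybridisation controls added to every array read -0.79 and -0.66 in the day 9 arrays with Dox and 0.010 and 0.17 in those without, and the 3′ minus 5′ reading of the Actb control was 0.23 and 0.20 against 0.0050 and -0.053. The part of these array differences in the day 9 result was not tested. Centring each array on its median left 32 members higher and 1 lower. Array medians already lay between -0.01 and 0.01, so that run could change little and does not address these control readings.

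**Figure D4:**
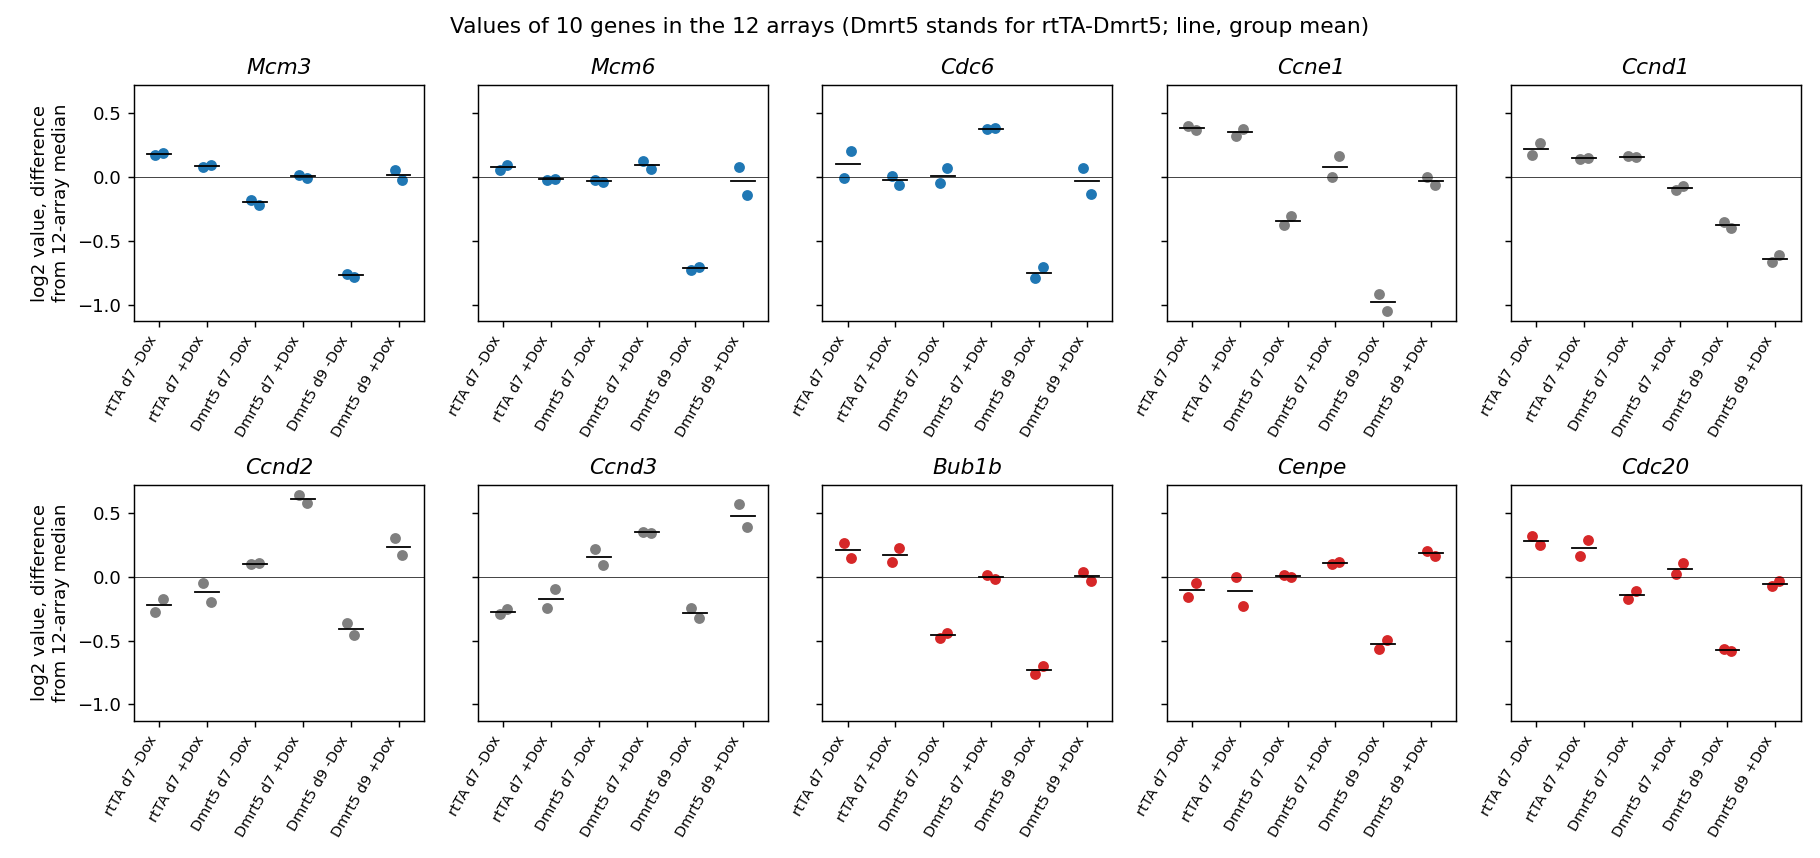
Log2 value (difference from the gene's 12-array median, vertical axis) of 10 genes in each of the 12 arrays by group (horizontal axis; blue replication, grey cyclins, red mitosis). Points are arrays and lines are means of 2; Ccne1, Mcm3, Cdc6 and Bub1b are lowest at day 9 without Dox and near 0 at day 9 with Dox, whereas Ccnd1 is lowest at day 9 with Dox, at -0.67 and -0.61.

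At day 7 fewer members passed for Dox in rtTA-Dmrt5 cells: 4 of 44 (9.09%) rose and 0 fell, where 3.08% of all genes rose, 3.85% fell and 6.94% changed in either direction. They were Ccnd2, from 0.10 and 0.11 to 0.64 and 0.58 (change 0.51, SE 0.093, adjusted p = 0.0105), Bub1b, from -0.48 and -0.44 to 0.018 and -0.014 (change 0.46, SE 0.085, adjusted p = 0.0107), Ccne1, from -0.38 and -0.31 to -0.0025 and 0.17 (change 0.43, SE 0.091, adjusted p = 0.0224), and Aurka (change 0.37, SE 0.087, adjusted p = 0.0315). None of the 20 replication genes passed. All 20 lay above 0 (0.021 to 0.37, median 0.13, beside 0.013 for all genes), but the share of all genes above 0 was not counted. An unadjusted p under 0.05 was found for 4 of the 20 and for 3744 of all 18193 genes, a similar share. Cdc6, which went from -0.047 and 0.070 to 0.38 and 0.39, came closest, with 0.37 and adjusted p = 0.0739. Ccnd1 gave -0.24 (adjusted p = 0.104). Without either array lacking Dox, or without the second array with Dox, 0 members passed, and without the first array with Dox 1 passed. A dim probe set of Bub1b gave -0.22, against 0.51 for a bright one. With all probe sets averaged the calls of Aurka and Bub1b were lost.

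In the parental line 0 of 44 members passed for Dox at day 7, as did 0 of all 18193 genes (0%; limma, with 929 genes at an unadjusted p under 0.05). Member values ran from -0.22 (Mcm4, adjusted p = 0.932, the single member with an unadjusted p under 0.05) to 0.10 (Ccnd3), with class medians of -0.053 for replication genes, -0.074 for cyclins and Cdks and -0.058 for mitosis genes. The next smallest p-values were those of Aurkb (-0.17) and Ccna2 (-0.15). Ccne1, for example, read 0.40 and 0.37 without Dox and 0.33 and 0.38 with it. The difference between the lines in the Dox response at day 7 was tested directly, and 0 of 44 members passed, where 0.857% of all genes passed with a higher value in rtTA-Dmrt5 cells, 1.98% with a lower one and 2.84% in either direction. In this test 17 members had an unadjusted p under 0.05, beside 2944 of all 18193 genes. Member values lay above 0 for 43 of 44, with a median of 0.22, beside 0.001 for all genes. The share of all genes above 0 was not counted, so these signs do not show a difference between the lines. The smallest p-values belonged to Bub1b (0.50, 95% interval 0.23 to 0.77, adjusted p = 0.061), Aurka (0.46, adjusted p = 0.0917) and Ccne1 (0.46, adjusted p = 0.108).

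The lines differed before any Dox. At day 7 without Dox 24 of 44 members (54.5%) were lower in rtTA-Dmrt5 than in rtTA cells and 2 were higher, where 13.4% of all genes were lower, 15.2% higher and 28.6% different in either direction. By class, 10 of 20 replication genes were lower (median -0.26), 5 of 9 cyclins and Cdks were lower and 2 higher (median -0.58), and 9 of 15 mitosis genes were lower (median -0.42), beside 0.023 for all genes. Cdk2, the partner of cyclin E, had the largest difference at -1.03 (SE 0.19, adjusted p = 0.00337), followed by Kif11 (-0.78), Plk1 (-0.75), Ccne1 (-0.73), Bub1b (-0.67), Aurka and Cenpa (-0.66), Ccna2 (-0.64), Cdk1 (-0.63), Tyms (-0.59), Ccne2 (-0.58) and Bub1 (-0.52). Ccnd3 and Ccnd2 were the higher ones. Ccnd3 read -0.29 and -0.25 in rtTA cells and 0.22 and 0.096 in rtTA-Dmrt5 cells (0.43, SE 0.097, adjusted p = 0.00914). Ccnd2 read -0.27 and -0.17 against 0.10 and 0.11 (0.33, SE 0.093, adjusted p = 0.0256), though 1 of its 7 probe sets gave -0.21. The call of Ccnd2 was lost on leaving out any 1 of the 4 arrays (adjusted p 0.0502 to 0.146), and that of Ccnd3 without rtTA replicate 1 (adjusted p = 0.0558) or rtTA-Dmrt5 replicate 1 (adjusted p = 0.0702), both without Dox. With all probe sets averaged the calls of Ccnd2, Aurka and Cenpa were lost. Ccnd1 read 0.17 and 0.27 against 0.17 and 0.16 and did not pass. This comparison shares the rtTA-Dmrt5 arrays without Dox with the day 7 Dox response. Markers of undifferentiated ES cells also differed: 11 of 13 were lower in rtTA-Dmrt5 cells and 2 (Klf4 and Tbx3) higher. Array medians over that list were 1.11 and 1.08 in rtTA cells and -1.25 and -1.21 in rtTA-Dmrt5 cells. Of 17 neuron markers 7 were lower and 3 higher, and of 9 surface epithelium markers 2 were lower and 5 higher. Of 11 mesoderm and endoderm markers 2 were lower and 4 higher. Of 10 mesenchyme and neural crest markers 1 was lower and 3 were higher. Of 12 neural progenitor markers 3 were lower and 3 higher. The part of all these markers in the difference was not tested. The 3′ minus 5′ reading of the Actb control was -0.37 and -0.28 in these rtTA arrays against 0.065 and 0.048 in the rtTA-Dmrt5 arrays, and that of Gapdh -0.14 and -0.078 against 0.049 and 0.042; their part was not tested either.

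Replication genes outside the members mostly moved in the same directions. For these lists and those below, the background is the share of all genes. Between day 7 and day 9 without Dox 7.11% of all genes fell and 7.88% rose. With Dox 16.9% rose and 11.3% fell at day 9, and 3.08% rose and 3.85% fell at day 7. Of 41 other replication genes, 24 fell and 1 (Orc4, an origin recognition subunit, by 0.36) rose between day 7 and day 9 without Dox, with Pole2 (-0.72), Prim2 (-0.65) and Mcm10 (-0.63) falling most. At day 9 28 of them rose with Dox, led by Wdhd1 (1.09), Prim2 (1.03) and Tk1 (0.86), and Pole3, a small subunit of polymerase epsilon, fell by 0.51. At day 7 Dna2 (0.50), Tk1 (0.46), Gins1 and Timeless, 4 of 41, rose with Dox. Of 51 other mitosis genes, 15 fell between day 7 and day 9 without Dox, led by Cenpk (-0.95), Cenpi (-0.55) and Ect2 (-0.51). At day 9 26 of the 51 rose with Dox, led by Kif20a and Kif4 (0.72) and Ncaph (0.60), and the phosphatase gene Cdc25b fell by 0.47. At day 7 only Espl1, the separase gene, rose (0.44), a share of 1.96% that is below the 3.08% of all genes.

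Of 24 genes of G1 control and the Rb-E2f pathway, 11 rose with Dox at day 9, led by Myc (2.03), a growth regulator, the E2F family gene E2f8 (1.15) and the ubiquitin ligase subunit gene Skp2 (0.51), and Tfdp2, an E2F partner, fell by 0.30. At day 7 E2f8 (1.13), Myc (1.04) and Lin54 (0.48), whose product binds the CHR, rose with Dox and Tfdp2 fell by 0.41. Between day 7 and day 9 without Dox 6 of the 24 fell, led by the D-cyclin partner Cdk6 (-1.10), Myc (-0.93) and E2f7 (-0.55), and the pocket protein gene Rbl2 rose by 0.65. The 15 Cdk inhibitor and growth arrest genes went both ways. Between day 7 and day 9 without Dox Gadd45g (0.82), Cdkn2d (0.55) and Cdkn1c (0.50) rose, and Ccng1 (-0.82), Cdkn1a (-0.70) and Cdkn2a (-0.64) fell. With Dox at day 9, Gadd45g, Cdkn1c and Cdkn2d were the 3 that fell (by 0.57, 0.48 and 0.38), and 5 rose, led by Cdkn2b (1.29), Gas1 (0.58) and Cdkn2a (0.41). None of the 15 passed for Dox at day 7, with an adjusted p of 0.0572 or more.

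Neuron markers also changed in these comparisons. Shares of all genes are those given above, and between day 7 and day 9 with Dox 10.0% of all genes rose and 6.19% fell. Between day 7 and day 9 without Dox 13 of 17 rose and 0 fell (median 0.67; Mapt by 1.81 and Syt1 by 1.32), and with Dox 13 of 17 rose over the same days. At day 9 11 of 17 fell with Dox and 0 rose (median -0.79; Snap25 gave -1.29 and Nefm -1.27). The medians over this list were -0.21 and -0.099 at day 7 without Dox, -0.89 and -0.98 at day 7 with Dox, 0.46 and 0.51 at day 9 without Dox and -0.20 and -0.16 at day 9 with Dox. At day 7 11 of 17 also fell with Dox (median -0.68), while 4 members rose. Of 12 neural progenitor markers 2 rose (16.7%, beside 16.9% of all genes) and 4 fell (33.3%, beside 11.3%) with Dox at day 9. ES-cell markers rose with Dox in 8 of 13 genes at day 7 (median 0.61) and 11 of 13 at day 9 (median 0.74), and also between day 7 and day 9 without Dox, when 10 of 13 rose and 1 fell. At day 9 6 of 9 surface epithelium and 8 of 11 mesoderm and endoderm markers rose with Dox as well. Since values are centred, no marker can be read as absent. The part of these cell types in the changes of replication and mitosis genes was not tested.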

How the data were processed

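RNA of 12 samples was measured on Affymetrix mouse arrays. DNase-treated total RNA (5 ng) was amplified with the Ovation system and labelled with biotin, per the labels' protocols. The deposited log2 values were made by the authors with RMA, per the submitters' processing notes; neither its version nor the centring step is stated there. The table holds 45101 probe sets, each with a median of 0 over the arrays within 5e-07. The log base is taken from the definition of RMA, and the direction as larger for more RNA. Quantile normalization within RMA removes shifts shared by all genes.

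Probe sets were named from the platform annotation: 34945 had 1 symbol, 932 several, 9160 none, and 64 were controls. The spacing of the single-precision values gave each probe set's level class, and a gene's value averages the probe sets of the highest class it reaches. Group means over all 12 arrays were fitted with limma 3.58.1 (R 4.3.3), with eBayes and Benjamini-Hochberg adjustment within each of 8 comparisons over 18193 genes, at adjusted p 0.05 (6 residual and 3.59 prior degrees of freedom). The fit was tested on simulated data. Tables were handled in Python 3.11.15 with pandas 2.3.3, and plots made with matplotlib 3.10.9. Promoters came from RefSeq (GRCm38.p6), matched by symbol.

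The members, lists and tests were chosen with earlier results of these data known. Any member may be named; of each other list, up to 3 genes that passed in each direction, by size, and of marker lists up to 2. Values in every array are given for the 2 members of each class with the largest called changes in the day 9 Dox response and the day 7 to day 9 change without Dox, and for Ccnd1, Ccnd2, Ccnd3 and Ccne1. Samples were grouped by the labels. The labels number the arrays of each group 1 and 2, and same-numbered arrays did not deviate together (15 pairs, correlations -0.18 to 0.19, 2 over 0.1), so they were not paired.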

Additional observations from a re-analysis of the deposited data

Results flagged for a closer look

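The Dox response of rtTA-Dmrt5 cells differed between day 9 and day 7 for 3 members, by limma's test of the difference itself. It was larger at day 9 by 0.48 for Mcm2 (adjusted p = 0.0497), by 0.59 for Mcm3 (adjusted p = 0.0278) and by 0.61 for Cenpe (adjusted p = 0.0497). For Mcm2 the responses were 0.081 at day 7 and 0.56 at day 9, for Mcm3 0.20 and 0.79, and for Cenpe 0.10 and 0.71. All 3 lost their call with all probe sets averaged and with only the compared arrays fitted. Mcm2 and Cenpe lost it when any 1 of the 8 rtTA-Dmrt5 arrays was left out (adjusted p 0.0556 and 0.0645 without the second day 9 array with Dox), and Mcm3 when any of them but that one was. Groups of 2 arrays are too small to test for a single array that stands apart.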

How the results depend on the processing

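No single change that passed turned its sign in the alternatives that give 1 value per gene, though some that did not pass did. The mitosis median at day 9 with Dox, -0.004, was 0.006 with arrays centred. Probe sets taken singly did turn. For Dox, 1 of 4 called members at day 7 and 11 of 33 at day 9 had a probe set of the opposite sign. It was so for 3 of 26 from day 7 to day 9 without Dox, 0 of 11 with Dox and 6 of 26 between the lines. Of 103 single changes that passed, 83 kept their call with all probe sets averaged and 65 when only the compared arrays were fitted. All 103 kept it with each array centred on its median. That run could change little, since array medians already lay between -0.01 and 0.01. Fits limited to genes of level 8 or more tested 40 members. The share of all genes or probe sets that passed was not counted in any alternative run, so these numbers have no background. Members that passed for Dox at day 7 (4) numbered 12 with genes of level 8 or more, 2 with only the arrays compared, 11 with array weights and 2 with a replicate block within line and day, and 10 of 104 member probe sets passed on their own. At day 9 (33) they numbered 20 with only the arrays compared, and 59 probe sets passed. For the difference between lines (0) the number was 1 with all probe sets averaged, 8 at level 8 or more and 1 with array weights, and 2 probe sets passed. For the difference between days (3) it was 0 with all probe sets averaged, 12 at level 8 or more, 0 with only the arrays compared and 1 with robust eBayes, and 0 probe sets passed; it was 1 with the replicate block and 0 with the block within line and day. From day 7 to day 9, 50 probe sets passed without Dox and 18 with Dox (members 26 and 11), and with only the arrays compared 1 member passed with Dox. Between the lines 44 probe sets passed (members 26). Leaving out an array, which also leaves fewer degrees of freedom, gave 0 to 1 for Dox at day 7, 20 to 31 at day 9, 0 to 0 in the parental line, 0 to 0 between lines in the response, 0 to 3 between days, 13 to 18 from day 7 to day 9 without Dox, 1 to 10 with Dox and 18 to 19 between the lines; a group left with 1 array is assumed to vary like the others. The replicate block, which the numbers do not support as a pairing, kept 95 of 103 calls. With all probe sets averaged the replication medians were 0.22 and 0.13 in the parental line without and with Dox, 0.057 at day 7 with Dox and -0.49 at day 9 without Dox. That of the cyclins and Cdks was -0.37 at day 9 without Dox, and those of the mitosis genes were 0.14 in the parental line with Dox, 0.082 at day 7 with Dox and -0.057 at day 9 with Dox. With arrays centred, the cyclin and Cdk median at day 9 with Dox was -0.006. Where a cause is not named it was not tested. In the last 200 bases of the promoter window, E2F letters stood in 50% of replication and 0% of mitosis promoters and CHR letters in 11.1% and 78.6%. With 2 arrays per group the number of arrays limits the precision.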
